A study of Mus musculus with 6 samples.

Results

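The probes of p53 (Trp53), of 7 of its target genes and of the paired inhibitor genes Cdkn2a and Cdkn2b were read on 6 microarrays of mouse fibroblast lines. A probe belonged here if it was not a control and carried the name of 1 of these 10 genes. This gave 15 of the 61307 probes, and 10 of the 50090 gene names, on the array. Trp53, Mdm2 and Ccng1 each had 2 probes, Btg2 had 3, and the other members had 1. All 10 RefSeq accessions on the array matched the same symbol in a current mouse reference table.

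p53 is a transcription factor that is held at a low level by the ubiquitin ligase Mdm2 and accumulates after DNA damage or oncogenic stress. It then switches on genes that halt the cell cycle, repair DNA or start apoptosis, and it also switches on Mdm2, which closes a feedback loop. The Cdkn2a gene encodes p16Ink4a, which inhibits the cyclin D kinases, and p19Arf, which shields p53 from Mdm2. Its neighbour Cdkn2b encodes the related kinase inhibitor p15Ink4b. NIH3T3 cells, an immortalized fibroblast line from mouse embryos, are known to lack the Cdkn2a locus.

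The study describes all 3 groups as NIH3T3 derivatives made by retroviral transduction with the pCX4Neo vector and Geneticin selection. Of the sample titles, only those of the GFP arrays name NIH3T3. The control cells expressed GFP alone (GFP). The other lines overexpressed the deacetylase SIRT7 joined to GFP and were split by morphology into long spindle-shaped cells (LT7) and small cells that grew in compact colonies (ST7). Each group had 2 arrays from different passages, and each line was grown from an isolated clone or colony, so the spread between replicates covers passage and hybridization but not other clones.

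The arrays labelled ST7 stood apart, which touches every comparison with them. The scanner software marked 57.6% and 53.6% of probes as well above background on the GFP arrays. It marked 47.5% and 47.6% for LT7 but 26.5% and 25.8% for ST7. The 75th percentile of the signal, to which the authors scaled each array, was 317 to 384 in GFP and LT7 and 16.3 and 17.1 in ST7, so that scaling moved the middle of the ST7 to GFP log2 ratios, over the whole array, from -0.68 to 3.72. Sirt7 itself gave signals of 3125 and 2480 in GFP and 3633 and 2782 in LT7, but 2.85 and 3.28 on the arrays labelled ST7, where it was not above background. In LT7 its log2 change was 0.29 (SE 0.21, adjusted p = 0.471, limma), and whether the probes also match the transduced SIRT7 was not given in the sources used here. A second probe of Sirt7 gave 2594 and 2142 in GFP and 2.86 and 3.15 in ST7, where it was not above background. The GFP cells were not given SIRT7, so both probes read the gene of the cells themselves there. By immunoblot the study found SIRT7GFP protein in LT7 and ST7 cells at levels that did not differ significantly. What the loss of Sirt7 signal means for the label was not tested here, and "ST7" stands for the arrays so labelled. Whether they hold RNA of the same line and species as the other 4 arrays was not tested, which touches every ST7 value. LT7 replicate 1 was read alone in a scan of its own, and its spike-in RNAs were brighter (12.3 on the log2 scale, against 8.02 to 8.27 on the other arrays). Signals are therefore given first as measured, before any scaling. In bulk RNA, fewer cells of a type and less RNA per cell cannot be told apart.

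The probes carried 60 bases each, and the first 30 are shown for the members on which the results turn. The paired probes of Trp53 and Ccng1 are given because they read the same gene differently on the arrays labelled ST7, Cdkn1a as the classical p53 target, and Cdkn2a and Cdkn2b because they were not detected.
Trp53 probe 1: gcattcaggccctcatcctcctccttccca
Trp53 probe 2: accgccgtacagaagaagaaaatttccgca
Ccng1 probe 1: tcagaagttgaaatggattgtgtctggacg
Ccng1 probe 2: agaaataaaattgctgagtttatctgcaaa
Cdkn1a: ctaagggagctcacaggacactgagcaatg
Cdkn2a: cacttctagcgatgctagcgtgtctagcat
Cdkn2b: catgtgtggggattcacctgcaaaatggca

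Of the 10 genes, 8 were well above background on both GFP arrays and on both LT7 arrays, and 4 on both ST7 arrays. The exceptions on the GFP and LT7 arrays were Cdkn2a and Cdkn2b. Cdkn1a, Mdm2, Gadd45a and Btg2 were read by their brightest probes at 564 to 2113 in GFP and were not above background in ST7. Trp53, Ccng1, Bax and Bbc3 remained above background in ST7 by their brightest probes.

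**Figure D1:**
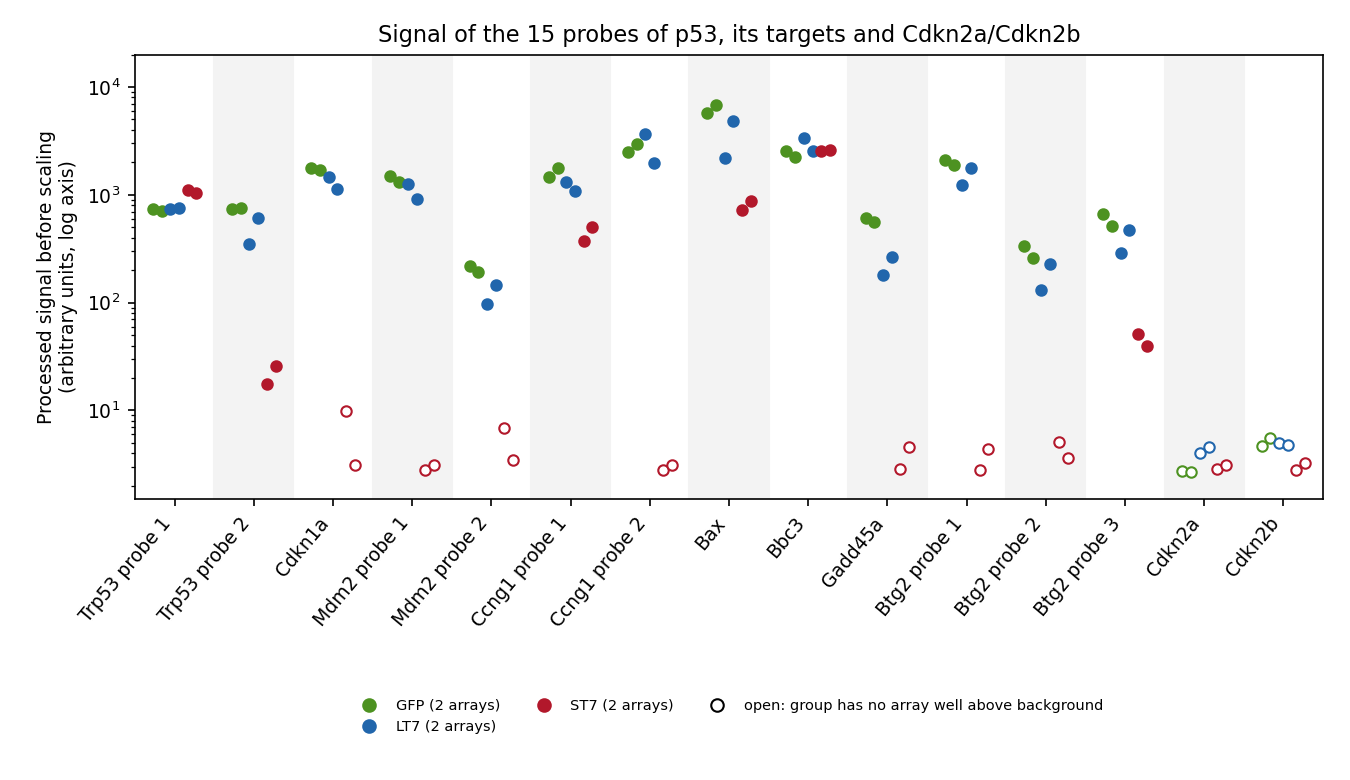
Processed signal of each of the 15 probes on the 6 arrays before scaling, in arbitrary units on a log axis. Each point is 1 array, green for GFP, blue for LT7 and red for ST7, and open where no array of that group was well above background. The open red points below 10 for Cdkn1a, Mdm2, Gadd45a and Btg2 lie far under the GFP and LT7 points of the same probe, and all points of Cdkn2a and Cdkn2b are open.

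p53 itself was measured by a pair of probes. Probe 1 of Trp53 gave signals of 733 and 707 in GFP, next to 736 and 760 in LT7 and to 1104 and 1032 in ST7. The GFP and LT7 values lay close together, and both ST7 values were above all others. Probe 2 gave 742 and 757 in GFP cells, 349 and 614 in LT7 cells and only 17.7 and 25.7 in ST7, so that this probe was lowest where the other was highest. In LT7 the change after scaling was 0.15 on the log2 scale by probe 1 (SE 0.21, adjusted p = 0.722, limma) and -0.60 by probe 2 (SE 0.38, adjusted p = 0.406). Neither passed the test.

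For ST7 the pair of Trp53 probes gave different answers. Probe 1 was 1.48-fold above GFP in signal and 31.3-fold above it after scaling (log2 4.97, SE 0.21, adjusted p = 1.68e-05). Probe 2 was 35.2-fold below GFP in signal, and its change after scaling was -0.74 (SE 0.38, adjusted p = 0.114). A level of Trp53 RNA in ST7 relative to GFP therefore could not be given from these arrays.

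Mdm2, the ubiquitin ligase that removes p53, was read by a pair of probes that both lost their signal in ST7. Probe 1 gave 1494 and 1307 for the GFP arrays, 1272 and 910 for LT7 and then 2.79 and 3.11 for ST7. Probe 2 gave 218 and 192 in GFP, next to 96.5 and 147 in LT7 and to 6.84 and 3.47 in ST7. On both probes the LT7 values lay below the GFP values, and no ST7 array was above background. Mdm2 fell in ST7 by probe 1 (log2 -4.49 after scaling, SE 0.22, adjusted p = 1.68e-05, at least 4.91-fold lower). Against the lowest signal that was above background on the ST7 arrays, and before scaling, the same probe was at least 104-fold lower. By probe 2 the change in ST7 after scaling was -0.99 (SE 0.44, adjusted p = 0.0757), which did not pass. In LT7 the changes after scaling were -0.28 by probe 1 (SE 0.22, adjusted p = 0.515) and -0.68 by probe 2 (SE 0.44, adjusted p = 0.410).

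The next targets halt the cell cycle or act in DNA repair. Cdkn1a encodes p21, the inhibitor of cyclin-dependent kinases through which p53 arrests cells in the G1 phase. Its probe gave 1777 and 1696 in GFP cells, 1476 and 1138 in LT7 cells and only 9.81 and 3.13 in ST7. The LT7 arrays lay below the GFP arrays in signal and the ST7 arrays were not above background. In ST7 Cdkn1a fell by 3.89 on the log2 scale after scaling (SE 0.57, adjusted p = 0.00128), at least 6.10-fold after scaling and at least 129-fold in signal. In LT7 its change was -0.32 (SE 0.57, adjusted p = 0.796). This SE pools the spread of all 3 groups, including the ST7 values below background. In a fit of GFP and LT7 alone the SE was 0.26 (adjusted p = 0.526, limma).

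Gadd45a, a stress sensor that binds the replication clamp PCNA and takes part in growth arrest and repair, had the lowest LT7 values relative to GFP among the members. Signals were 614 and 564 for the GFP arrays, 180 and 264 for LT7 and then 2.88 and 4.54 for ST7. All LT7 values lay below all GFP values, by 2.52-fold on average after scaling (log2 -1.33, SE 0.33). With limma the adjusted p was 0.102 and the unadjusted p 0.00935, so that it did not pass the test over all probes. Gadd45a did meet a fold rule modelled on that of the study and read here on the log2 scale, in which both replicates must reach a log2 ratio of 0.8 in the same direction and their mean must pass 1. The scale of these cutoffs was not given in the sources used here. In ST7 it fell by 2.95 (SE 0.33, adjusted p = 0.000409), at least 2.07-fold after scaling and at least 43.6-fold in signal.

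Btg2 encodes an antiproliferative protein of the BTG/TOB family and was read by 3 probes. Probe 1 gave 2113 and 1898 in GFP, next to 1244 and 1792 in LT7 and to 2.77 and 4.42 in ST7. Probe 2 gave 333 and 259 in GFP cells, 131 and 228 in LT7 cells and only 5.08 and 3.59 in ST7. Probe 3 gave 658 and 519 for the GFP arrays, 288 and 475 for LT7 and then 50.9 and 39.6 for ST7. The LT7 values lay below the GFP values on all 3 probes, and only probe 3 stayed above background in ST7. Btg2 fell in ST7 by probe 1 (log2 -4.76, SE 0.33, adjusted p = 5.52e-05, at least 7.03-fold) and by probe 2 (log2 -1.71, SE 0.38, adjusted p = 0.00728), although the lower bound for probe 2 was only 1.03-fold. Probe 3 was 13.01-fold below GFP in signal and 0.70 above it after scaling (SE 0.34, adjusted p = 0.104). In LT7 the change ranged from -0.67 to -0.32 over the 3 probes, with adjusted p from 0.354 to 0.620.

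Ccng1 encodes cyclin G1, a p53 target that recruits a phosphatase to Mdm2. Probe 1 gave 1478 and 1761 in GFP, next to 1317 and 1080 in LT7 and to 376 and 499 in ST7. Probe 2 gave 2501 and 2937 in GFP cells, 3670 and 1989 in LT7 cells and only 2.79 and 3.12 in ST7. The probe that was brighter on the GFP arrays was the one that was lost in ST7. By probe 1, ST7 was 3.72-fold below GFP in signal and 5.66-fold above it after scaling (log2 2.502, SE 0.27, adjusted p = 0.000338). By probe 2 it was lower on both scales (log2 -5.44 after scaling, SE 0.34, adjusted p = 3.76e-05, at least 9.52-fold). In LT7 the changes were -0.34 (SE 0.27, adjusted p = 0.516) and 0.09 (SE 0.34, adjusted p = 0.911).

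The members that act in apoptosis were detected on every array. Bax, which opens the outer mitochondrial membrane, gave 5710 and 6755 for the GFP arrays, 2216 and 4838 for LT7 and then 728 and 870 for ST7. Both LT7 and both ST7 signals were below the GFP signals. In LT7 the change of Bax was -0.83 after scaling (SE 0.45, adjusted p = 0.335), with LT7 replicate 1 well below replicate 2. In ST7 Bax was 7.81-fold below GFP in signal and 2.70-fold above it after scaling (log2 1.43, SE 0.45, adjusted p = 0.0268), so that its direction rested on the scaling. The call was also lost without GFP replicate 1 (adjusted p = 0.132) or 2 (0.0597) and without ST7 replicate 1 (0.0590) or 2 (0.0843).

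Bbc3 encodes Puma, a BH3-only activator of apoptosis, and gave similar signals on all 6 arrays. They were 2526 and 2231 in GFP, next to 3374 and 2577 in LT7 and to 2561 and 2631 in ST7. The LT7 and ST7 values lay above the GFP values, narrowly for LT7 replicate 2 and for both ST7 arrays. In LT7 the change was 0.41 (SE 0.21, adjusted p = 0.292). In ST7 it was 1.09-fold in signal and 23.1-fold after scaling (log2 4.53, SE 0.21, adjusted p = 1.68e-05).

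Set together, the LT7 arrays showed lower values of several targets that did not pass a test over all probes. By the brightest probe and before scaling, 6 of the 8 detected genes were lower on both LT7 arrays than on both GFP arrays (Cdkn1a, Mdm2, Ccng1, Bax, Gadd45a and Btg2), and Trp53 and Bbc3 were higher. The other probe of Trp53 was lower in LT7, and that of Ccng1 overlapped between the groups. Among the 25225 gene names detected in GFP, 31.2% were lower in this way and 43.2% were apart in either direction. After scaling 3 of the 8 were lower and 1 higher without overlap, while 21.0% of those gene names were lower and 40.0% apart in either direction. At an adjusted p under 0.05, limma called 0 members in LT7, and 0.176% of all probes (0.0440% higher and 0.132% lower). At an unadjusted p under 0.05 it called 2 members, Gadd45a and Cdkn2a, of which Cdkn2a was not above background. Over the array 27.2% of all probes passed that threshold, a larger share than the 2 of 10 members, and 10.3% did in a fit limited to probes that at least 1 group had above background on its 2 arrays. The fold rule called 1 member, Gadd45a, lower and 0 higher, while 3.02% of all probes were lower and 2.89% higher by that rule.

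**Figure D2:**
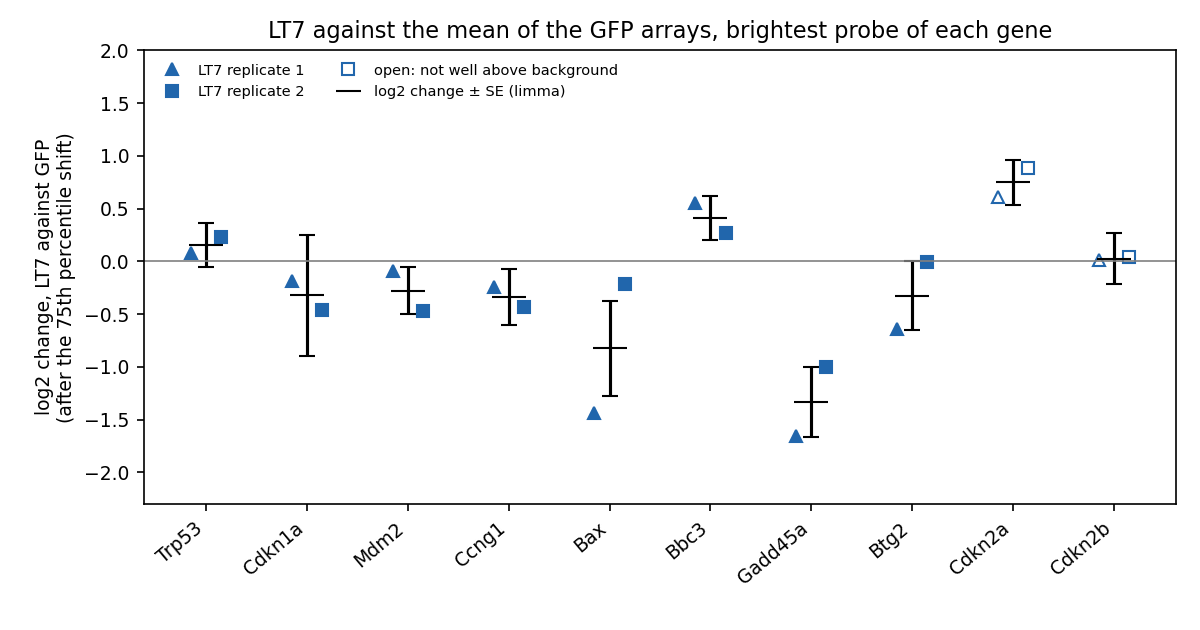
Change of the brightest probe of each gene in LT7, as log2 after the 75th percentile shift, relative to the mean of the GFP arrays. Triangles and squares are LT7 replicates 1 and 2, horizontal marks with bars are limma's log2 change ± SE, and open symbols were not above background. The line at 0 is the GFP mean, and Gadd45a is the member farthest below it at -1.33.

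In ST7 after scaling, limma called 6 of the 10 members higher and 4 lower, where 70.7% of all probes were called higher and 19.8% lower. The 6 higher included Cdkn2a and Cdkn2b, whose signals were below background on every array. They also included Trp53 and Ccng1, whose probe 1 was chosen as brightest by scaled values that include those of ST7. Probe 2 gave a log2 change of -0.74 for Trp53 (adjusted p = 0.114, limma), which did not pass, and -5.44 for Ccng1, which was lower. The share of members called was thus read against a background of 90.6% of all probes called in either direction. Without scaling the calls were 1 higher and 7 lower, where 4.28% of all probes were called higher and 41.7% lower. The fold rule called the same counts, 6 higher and 4 lower, against 70.9% and 19.1% of all probes. The 4 members called lower were Cdkn1a, Mdm2, Gadd45a and Btg2, and by limma each stayed lower and past the threshold under every alternative run, with log2 changes from -9.16 to -0.99. The fold rule lost 1 of them, Gadd45a, with normexp background correction (log2 -0.99). The brightest probes of Cdkn1a, Mdm2, Gadd45a and Btg2 were not above background in ST7. By other probes, Mdm2 did not pass (probe 2, adjusted p = 0.0757, limma). Btg2 changed direction by probe 3, with log2 -3.70 before scaling and 0.70 after it (adjusted p = 0.104). By their brightest probes, Ccng1 and Bax also changed direction between scalings.

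**Figure D3:**
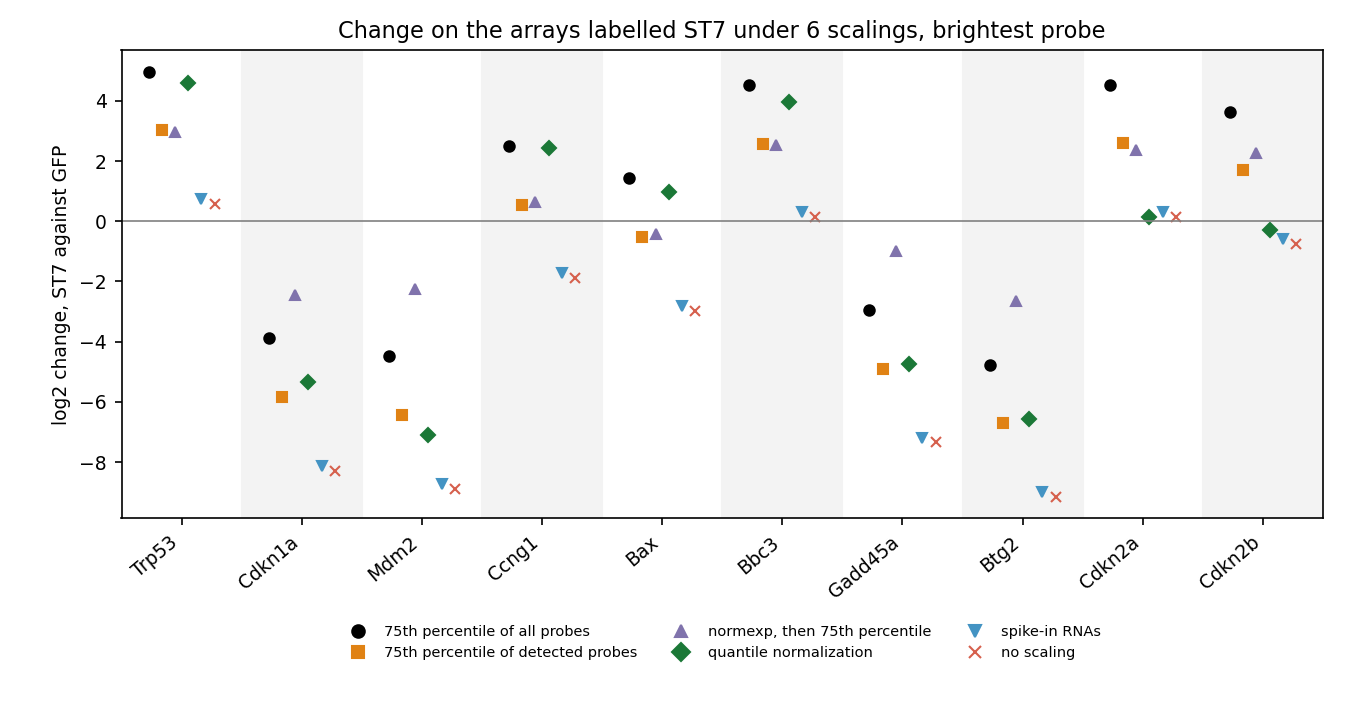
Log2 change of the brightest probe of each gene in ST7 against GFP under 6 ways of scaling the arrays. Each symbol is 1 scaling. Cdkn1a, Mdm2, Gadd45a and Btg2 lie below 0 under all 6, Trp53 and Bbc3 above 0 under all 6, and Ccng1, Bax and Cdkn2b on both sides, while Cdkn2a and Cdkn2b were not above background.

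By the brightest probe after scaling, limma's contrast of ST7 with LT7 called 6 members higher and 4 lower in ST7, with 90.7% of all probes called (71.0% higher and 19.7% lower). The 6 higher again included Cdkn2a and Cdkn2b, which were below background on all arrays. Other probes of the same genes gave other answers. Probe 2 of Trp53 (log2 -0.14, adjusted p = 0.729) and probe 2 of Mdm2 (-0.31, adjusted p = 0.517) did not pass the test, and probe 2 of Ccng1 was lower in ST7 (-5.54) where probe 1 was higher (2.84). Without scaling the contrast called 1 member higher and 8 lower, against 5.17% and 54.1% of all probes. The 8 lower included Cdkn2a and Cdkn2b, whose differences below background have no order as expression.

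Loss of signal in ST7 differed between probes of the same gene. Of the 15 member probes 13 were above background on both GFP arrays. All 13 were so in LT7 too, where the share over all probes was 84.0%. In ST7 6 of the 13 (46.2%) were kept on both arrays and 7 (53.8%) were on neither, against 40.1% and 52.9% of all probes detected in GFP. The share that was lost among members was thus close to that over the array. Between probes of one gene the change in ST7 differed by 5.71 on the log2 scale for Trp53, 3.50 for Mdm2, 7.95 for Ccng1 and 5.46 for Btg2, and by a median of 3.38 over the 4445 gene names with several detected probes. In LT7 these ranges were 0.75, 0.40, 0.43 and 0.34, with a median of 0.29. One probe was kept and another lost in ST7 for 38.6% of such genes, and for Ccng1 and Btg2 among the members. The kept member probes had a median GC content of 54.2% (45.0% to 60%) and the lost ones of 40.0% (35.0% to 50%), and over all probes the medians were 45.0% and 41.7%. The part of GC content in these differences was not tested.

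Cdkn2a and Cdkn2b were not above background on any of the 6 arrays. Cdkn2a gave 2.76 and 2.69 in GFP cells, 4.04 and 4.53 in LT7 cells and only 2.89 and 3.12 in ST7. Cdkn2b gave 4.67 and 5.59 for the GFP arrays, 4.98 and 4.74 for LT7 and then 2.82 and 3.23 for ST7. The lowest signals that were marked well above background were 9.89 to 22.3 on these arrays, so that every value of this pair lay under them. No fold is given for either gene. Differences among such values, including the higher Cdkn2a signals in LT7 and the log2 changes of 4.54 and 3.64 in ST7 after scaling, have no order as expression. An array of RNA cannot tell a deleted gene from one that is not transcribed.

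The neighbours of this pair on chromosome 4 were measured in the same cells. In the RefSeq order of protein-coding genes the sequence runs Ifna4, Ifna1, Ifne, Mtap, Cdkn2a, Cdkn2b, Dmrta1, Zfp352 and Elavl2. Mtap, the gene next to Cdkn2a and an enzyme of methionine salvage, gave 5103 and 4724 in GFP, next to 5802 and 4198 in LT7 and to 2.79 and 3.35 in ST7. Its GFP and LT7 values overlapped (log2 0.11, SE 0.23, adjusted p = 0.839), and it was lost in ST7 (at least 17.2-fold lower after scaling and at least 364-fold in signal, adjusted p = 1.68e-05). Dmrta1, on the other side, was not above background on any array (2.74 to 4.95). Elavl2, an RNA-binding protein gene, gave 1095 and 1044 for the GFP arrays, 1494 and 747 for LT7 and then 352 and 444 for ST7. Its ST7 signals lay below the others, while its change after scaling was 2.96 (SE 0.35, adjusted p = 0.00049). The interferon genes Ifna4, Ifne and Ifnb1 were below background on all arrays, and Ifna1 and Zfp352 reached it on single arrays only.

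**Figure D4:**
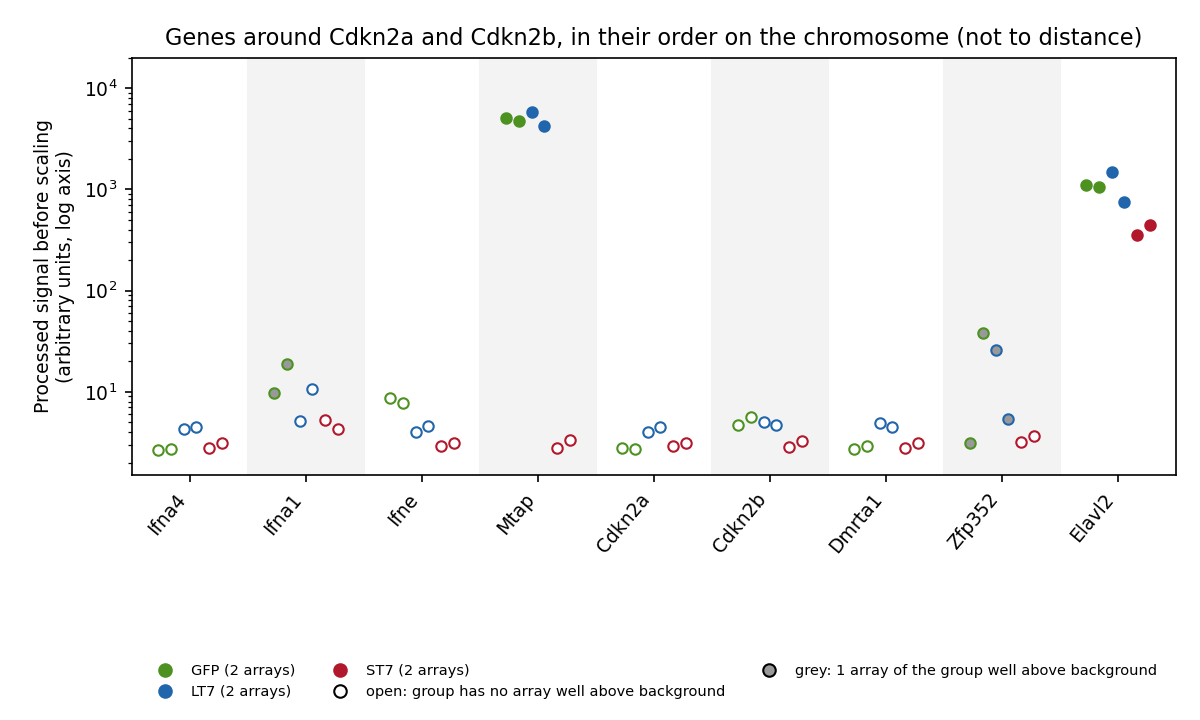
Processed signal before scaling, in arbitrary units on a log axis, of the genes around Cdkn2a and Cdkn2b in their order along the chromosome, which is not drawn to distance. Each point is 1 array, coloured by group, open where no array of the group was above background and filled grey where 1 was. Mtap in GFP and LT7 (4198 to 5802) and Elavl2 stand far above the open points of Cdkn2a, Cdkn2b and Dmrta1.

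Of the 9 genes listed for this region, 2 more were detected. Klhl9, an adaptor of a ubiquitin ligase, gave 98.7 and 114 for the GFP arrays, 132 and 118 for LT7 and then 116 and 134 for ST7, with a change of 0.33 in LT7 (SE 0.24, adjusted p = 0.469). Tusc1, a candidate tumour suppressor, gave 201 and 193 in GFP, next to 7.28 and 8.51 in LT7 and to 2.85 and 3.17 in ST7. Both LT7 arrays were far below the GFP arrays and not above background. Tusc1 fell in LT7 by 4.55 on the log2 scale after scaling (SE 0.22, adjusted p = 0.0161, limma, at least 8.72-fold lower), and was the 1 gene of the listed region to pass the test there. Its call was lost when the replicate number was a block (adjusted p = 0.104), without GFP replicate 1 (adjusted p = 0.270) or 2 (0.126), in a fit of GFP and LT7 alone or without either ST7 replicate (0.0638) and under quantile or spike-in scaling (0.0675 and 0.501). It remained lower under all of them.

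In the wider pathway the LT7 arrays gave 0 calls by limma in 4 further lists, which hold p53 regulators and relatives (15 genes measured), other targets of the cell cycle and repair (24), other targets of apoptosis (18), and other kinase inhibitors with the RB pathway (19). At an unadjusted p under 0.05 these lists held 1, 4, 4 and 1 genes, next to 27.2% of all probes and 10.3% after the filter on dim probes. Their median log2 changes in LT7 were -0.22, 0.01, -0.15 and 0.01, next to -0.30 for the 10 members. The median was 0.17 for all gene names, and -0.029 for the 26308 that at least 1 group had above background on its 2 arrays. Among these the list medians were -0.22, 0.01, -0.28 and -0.0073, and that of the 8 members was -0.32. The fold rule called 2 genes of these lists, both lower, which are named here after their values were seen. Pmaip1, which encodes the BH3-only protein Noxa, gave 26.2 and 35.0 in GFP and 4.57 and 4.61 in LT7 (log2 -2.62, SE 0.28, adjusted p = 0.0707). Casp1, the inflammatory caspase, gave 104 and 97.7 in GFP and 21.6 and 22.9 in LT7 (log2 -2.08, SE 1.03, adjusted p = 0.284). Neither was above background in LT7, and neither passed limma's test. Both SEs pool the spread of all 3 groups, ST7 included.

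In ST7 each of these lists lost a part of its detected genes. Signal was no longer above background on either ST7 array for 7 of the 15 detected regulators (46.7%), 12 of 24 cell cycle and repair targets (50%), 12 of 17 apoptosis targets (70.6%) and 7 of 18 genes of the kinase inhibitor list (38.9%). The members lost 4 of 8 (50%), and all gene names detected in GFP lost 48.9%. In LT7 the same lists lost 0 of 15, 1 of 24, 2 of 17 and 0 of 18 genes, against 8.54% of all gene names detected in GFP.

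**Figure D5:**
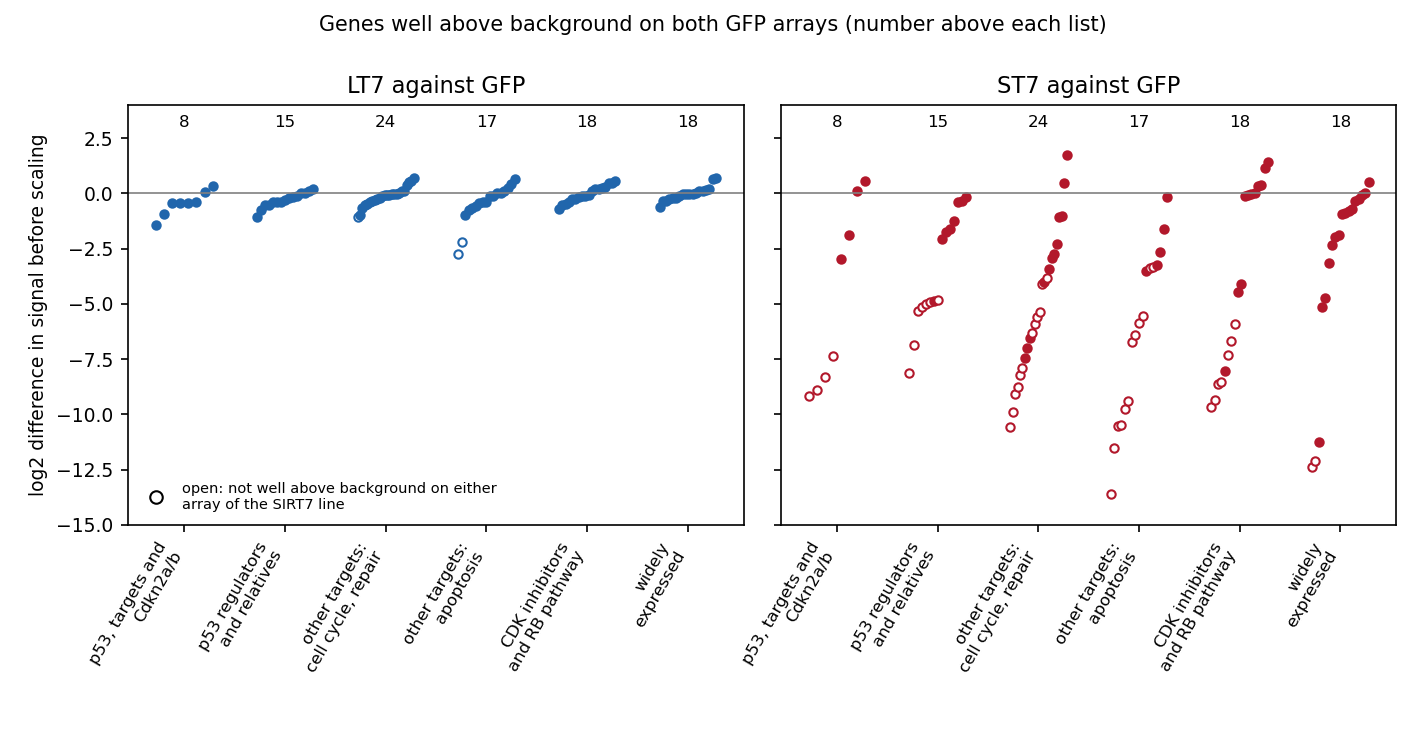
Log2 difference in signal before scaling for LT7 (left) and ST7 (right) against GFP, for the genes of 6 lists that were above background on both GFP arrays, with their number above each list. Each point is 1 gene, open where the SIRT7 line had no array above background. Most LT7 points lie near 0, and the open ones are Rprm, Pmaip1 and Casp1, while ST7 points reach from above 0 down to -13.6 and many are open.

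Among the regulators limma called 7 genes higher and 3 lower in ST7 after scaling, next to 70.7% and 19.8% of all probes. The 3 highest were Hipk2, a kinase that phosphorylates p53 (32.4 and 34.9 in GFP, 36.1 and 25.2 in ST7), Mdm4, a relative of Mdm2 (140 and 115, 139 and 72.0), and Trp73, a relative of p53 (80.6 and 85.5, 69.2 and 59.0). These signals were 1.12-, 1.27- and 1.30-fold below GFP before scaling and 18.9-, 16.6- and 16.2-fold above it afterwards. The 3 called lower were Trp53bp2, which steers p53 towards apoptotic targets (1203 and 987 in GFP, 4.22 and 3.53 in ST7), the deacetylase Sirt1 (384 and 341, 2.93 and 3.25) and the acetyltransferase Ep300 (144 and 122, 3.12 and 3.46). None of the latter was above background in ST7.

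Among the other cell cycle and repair targets 9 were called higher and 12 lower, next to 70.7% and 19.8% of all probes. Of the 9 called higher, 7 were above background on both ST7 arrays. Gadd45b, a relative of Gadd45a, fell from 4754 and 5223 in GFP to 3.02 and 3.60 in ST7, at least 17.5-fold after scaling. Zmat3, an RNA-binding p53 target, went from 2876 and 2782 to 2.87 and 3.12, at least 9.93-fold. Trp53inp1 went from 1687 and 1688 to 2.99 and 3.37, at least 5.93-fold. The 3 most raised after scaling were the arrest gene Rprm (20.6 and 23.2 in GFP, 68.3 and 76.7 in ST7, 3.31-fold in signal), the mTORC1 inhibitor Ddit4 (4318 and 4554, 5591 and 6571, 1.37-fold) and the replication clamp gene Pcna (17067 and 21193, 7999 and 10051). Pcna was 2.12-fold below GFP in signal and 9.95-fold above it after scaling.

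Of the other apoptosis targets 7 were called higher and 10 lower, next to 70.7% and 19.8% of all probes. Of the 7 called higher, 4 were above background on both ST7 arrays. Phlda3, an inhibitor of Akt, fell from 35459 and 38412 in GFP to 2.84 and 3.09 in ST7, at least 130-fold after scaling. The pro-apoptotic Siva1 went from 9577 and 9806 to 3.08 and 3.54, at least 34.0-fold, and the survival gene Mcl1 from 6878 and 5990 to 6.01 and 3.19, at least 22.5-fold. The 3 detected genes most raised after scaling, Lrdd (Pidd1), Bcl2l1 and Bcl2, had signals 1.12-, 3.04- and 6.31-fold below GFP before scaling.

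In the list of kinase inhibitors and the RB pathway 9 were called higher and 8 lower, next to 70.7% and 19.8% of all probes. Of the 9 called higher, 8 were above background on both ST7 arrays. Ccnd1, which encodes cyclin D1, fell from 2902 and 3094 in GFP to 3.40 and 3.99 in ST7, at least 10.5-fold after scaling. Its partner Cdk4 went from 6868 and 6657 to 8.01 and 13.7, at least 23.7-fold, and Cdkn2d, a relative of Cdkn2a on another chromosome, from 1536 and 1291 to 2.90 and 4.32, at least 4.95-fold. The phosphatase gene Cdkn3 rose from 549 and 443 to 1310 and 1348, 2.69-fold in signal. The Polycomb genes Bmi1 and Cbx7, which repress the Cdkn2a locus in many cells, were 2.21-fold and 1.32-fold above GFP in signal. Bmi1 gave 103 and 185 in GFP and 303 and 308 in ST7, and Cbx7 gave 192 and 162 and then 274 and 196.

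Of all 50090 gene names, 36625 were called higher and 9119 lower in ST7. Median log2 changes after scaling were -0.40 for the regulators, -1.09 for the cell cycle and repair targets, -1.30 for the apoptosis targets and 0.32 for the kinase inhibitor list. The median was 1.97 for the members and 3.87 for all gene names, most of which were not above background. Over the 26308 gene names that at least 1 group had above background on its 2 arrays it was 1.06, and over the 8 members among them -0.76. Over the list genes among them it was -0.40, -1.09, -1.45 and 0.12, in the order above.

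Markers of cell type moved with the ST7 results. Of 12 fibroblast markers all were above background in GFP and LT7, and 8 (Col3a1, Pdgfra, Pdgfrb, Thy1, Fn1, Fbn1, Twist1 and Lum) were not in ST7. This was 66.7%, against 48.9% of all gene names detected in GFP, and Col1a1, Col1a2, Vim and S100a4 were kept. The summed signal of the 12 was 333030 to 340290 in GFP, 360170 to 376610 in LT7 and 15066 to 16607 in ST7. Of 12 epithelial markers 5 were above background on both GFP arrays and 6 on both ST7 arrays. The sum was 467 to 531 in GFP and 2119 to 2271 in ST7, mostly from Krt18 (1881 and 1755 in ST7). Krt7 went the other way, above background on both GFP arrays and on neither ST7 array. Cdh1 and Ocln were below background on all arrays. The study did detect both in ST7 cells, E-cadherin by RT-PCR, immunoblot and immunofluorescence, and occludin by RT-PCR and immunofluorescence. Of 18 widely expressed genes 16 were above background in ST7 and Hprt1 and B2m were not, with a sum of 579180 to 597270 in GFP and 236680 to 244060 in ST7. Of 6 pluripotency markers 5 were not above background in ST7, while Sox2 was on both ST7 arrays (71.7 and 122) and on no GFP array, and the sum was 38.2 to 95.0 in GFP and 107 to 147 in ST7. Of 7 blood markers 3 were above background on both GFP arrays, and of these Cd68 and Csf1r were lost in ST7 and Cd3e was kept, with a sum of 268 to 325 in GFP and 110 to 121 in ST7. The part of these shifts in the loss of p53 targets was not tested.

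By the pattern over the 6 arrays, probe 1 of Trp53 was compared with 4245 genes whose brightest probe was above background on all of them. The most alike were Sh2b2, Tmem39b and Krtap5-4, with root mean square differences of 0.055, 0.056 and 0.064 between centred log2 values after the percentile shift. Their scaled changes in ST7 were 4.86, 4.95 and 4.89, next to 4.97 for Trp53 probe 1. That scaling alone moved the median ST7 to GFP log2 ratio of all probes from -0.68 to 3.72. Probe 2 of Trp53, which read ST7 differently, was not compared. Cdkn1a was not above background on all 6 arrays and was not compared.

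The promoters of the members hold matches to the p53 half-site consensus, a palindrome of 10 bases that p53 binds in pairs. RefSeq promoters of GRCm38.p6, from 250 bases before to 50 bases after each start, gave 14 sequences for the 10 members. A half-site was found in 6 of the 14, and in 8.36% of all 32851 promoters. These 6 were at Trp53 (75 bases before the start), Mdm2 (186), Ccng1 (185), Bax (201), Gadd45a (40) and Cdkn1a (73 and 51). A pair of half-sites separated by at most 13 bases was found in a Cdkn1a promoter, as in 0.0731% of all promoters. A further Cdkn1a promoter, at chr17:29093519-29093818 on the plus strand, held no half-site. The promoter with the pair, at chr17:29090729-29091028 on the plus strand, is printed with both half-sites in capitals because Cdkn1a was among the members lost in ST7.
Cdkn1a promoter: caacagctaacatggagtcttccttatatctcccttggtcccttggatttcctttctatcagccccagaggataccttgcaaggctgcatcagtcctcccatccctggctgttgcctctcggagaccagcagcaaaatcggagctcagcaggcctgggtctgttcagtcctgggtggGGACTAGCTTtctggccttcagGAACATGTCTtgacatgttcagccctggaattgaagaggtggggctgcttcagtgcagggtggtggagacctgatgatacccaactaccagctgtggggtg
A match is not evidence of binding, and no match was read as the absence of a site, since many p53 sites lie outside such windows. By the brightest probe, genes with and without a match were among both those lost and those kept in ST7. The lost were Cdkn1a, Mdm2 and Gadd45a with a match and Btg2 without. The kept were Trp53, Ccng1 and Bax with a match and Bbc3 without. By other probes, Btg2 was kept (probe 3) and Ccng1 was lost (probe 2).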

How the data were processed

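Cy3-labelled RNA of GFP, LT7 and ST7 cells (2 replicates each, from different passages) was read on 6 Agilent arrays of a single slide, with 1 colour per array. The deposited scanner files hold the background-subtracted processed intensity of each spot, made by the authors with Feature Extraction 10.5.1.1 per the file headers. The deposited series matrix, in log2 after the authors' 75th percentile shift, served as an alternative.

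Between 19 and 141 outlier spots per array were removed, repeated spots averaged, and the array's 75th percentile subtracted from the log2 intensity. A limma model (version 3.58.1, R 4.3.3), tested on simulated data, was fitted to the 6 arrays together, and p-values were adjusted over the whole array by the Benjamini-Hochberg method, with a threshold of 0.05. A gene was represented by its brightest probe, by the mean over the 6 scaled arrays, a choice that follows ST7 for Trp53 and Ccng1. Where no array of the dimmer group was marked by the scanner software as well above background, the fold is a lower bound against the higher of the probe's value and the lowest value above background on each array. Fold changes in signal are before scaling. The number of arrays limits the precision.

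All members were named, all genes measured near Cdkn2a, and in the other lists up to 3 genes per direction with the largest called change. Members and lists were chosen with earlier results of these data known. Alternatives were other scalings, normexp background correction (offset 50), a filter on dim probes, fits on 2 groups, a replicate block, the series matrix, outlier spots kept, the mean over probes and leaving out each array. Same-numbered replicates did not deviate together (correlations 0.08, 0.04 and -0.02).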

Additional observations from a re-analysis of the deposited data

Results flagged for a closer look

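By the brightest probe of each gene, all 10 members passed limma's contrast of ST7 with LT7, as did 90.7% of all probes. The change in ST7 minus the change in LT7, on the log2 scale after the percentile shift, was 4.81 for Trp53, 4.12 for Bbc3, 2.84 for Ccng1 and 2.26 for Bax. For Trp53 and Ccng1 this holds for probe 1 alone, with -0.14 (adjusted p = 0.729) and -5.54 by probe 2. The fitted difference was -3.57 for Cdkn1a, -4.21 for Mdm2, -1.61 for Gadd45a and -4.44 for Btg2, but none of these was above background in ST7. As bounds, LT7 exceeded ST7 at least 4.87-fold for Cdkn1a, 4.05-fold for Mdm2 and 5.61-fold for Btg2, and for Gadd45a no bound above 1 was reached. With normexp the difference of Gadd45a was 0.12 (adjusted p = 0.512). For Cdkn2a and Cdkn2b the difference was 3.79 and 3.61, although neither gene was above background on any array.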

How the results depend on the processing

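In LT7 limma called 0 members under each alternative, and leaving out 1 array moved the fold rule's count of lower members between 1 and 2, the higher one without LT7 replicate 2. With a replicate block no call of a member changed (0 in LT7, 6 higher and 4 lower in ST7). Over all probes the LT7 calls of limma ranged from 0 to 370 higher and from 0 to 327 lower, with 27 and 81 in the setting reported, and were 0 with the replicate block, where 16289 passed an unadjusted p under 0.05. The fold rule called 3 members lower in ST7 with normexp, without Gadd45a, and the contrast of ST7 with LT7 called 3 lower with normexp and with spike-in scaling. In ST7 against GFP limma called 1 member higher without scaling, 0 with spike-in scaling and 3 with quantile normalization, and 7 lower without scaling. Against LT7 it called 1 higher and 8 lower without scaling and 0 higher with spike-in scaling. The lower calls without scaling included Cdkn2b, and against LT7 also Cdkn2a, both below background on every array. The fold rule called 0 members higher in ST7 without scaling, 0 with spike-in scaling and 3 with quantile normalization. The change of Ccng1 in ST7 was -1.90 without scaling, -1.73 with spike-in scaling and -1.47 as the mean over probes. That of Bax in ST7 was -0.51 with the percentile over detected probes, -2.96 without scaling, -2.80 with spike-in scaling and -0.41 with normexp. Cdkn2b in ST7, below background, gave -0.76, -0.59 and -0.30 without scaling and with spike-in and quantile scaling. In LT7 spike-in scaling gave -2.01 for Trp53, -1.75 for Bbc3, -1.42 for Cdkn2a and -2.14 for Cdkn2b. The median over all probes was -2.00 under that scaling. The mean over probes gave -0.22 for Trp53 in LT7. Quantile scaling gave -0.0014 for Cdkn2a and -0.21 for Cdkn2b in LT7, where Cdkn2b was also -0.071 without scaling, -0.011 with normexp and between -0.23 without GFP replicate 1 and 0.28 without GFP replicate 2. The alternatives for Tusc1 were chosen after seeing the data. The cause of these shifts was not tested, and depth was limited in ST7 by the share of probes above background.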
